A study of Tetranychus urticae with 12 samples.

Results

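The 150 genes whose transcript level varied least over whole-body RNA libraries of the spider mite Tetranychus urticae were described across 3 strains. They were chosen from a table of read counts for 19114 gene IDs in 11 libraries. Counts were expressed as CPM, a gene's share of the library after scaling by TMM factors, which align libraries on the bulk of their genes, and taken as log2(CPM + 0.5). A gene had to reach at least 50 CPM in every library and stay outside the 100 genes of highest mean CPM, which left 3616 candidates. The 150 candidates with the smallest standard deviation (SD) over the 11 libraries are called members, and they made up 4.15% of the candidates. Their SDs and their differences between these libraries were therefore used to choose them, and are given as a description and without a test.

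Transcripts that keep a steady level are used as internal references, since any measure of relative expression needs something that can be taken as fixed. In animals such genes often serve functions that most cells share, for example protein synthesis, protein turnover, trafficking and energy supply. In sequencing the reference is the scaling factor of the library, so whether a gene looks steady depends on that factor. A CPM value is a share of a library, and a gene can change its share because other transcripts take more or less of the reads. In whole mites, fewer cells of a type and less RNA per cell cannot be told apart.

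The libraries came from untreated mites of the strains Trizina, which the submitters describe as multi-resistant, and London and BC2018-14, described as susceptible. All strains were kept on kidney bean plants and away from insecticides, and the sources used here do not give the age, sex or stage of the mites. Counts covered 4 libraries of Trizina (4, 5, 6 and 7), 4 of BC2018-14 (a, b, c and e) and 3 of London (2, 3 and 4). Counts of London library 5 were held for genes of the authors' deposited comparison of Trizina with London, which listed 0 of the members. Trizina is the one resistant strain, so resistance and strain cannot be told apart.

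Total counts per library ran from 26090006 to 39875401, and members had between 1413 and 25393 counts in a library. London library 2 stood apart. Candidates differed in it from the mean of the other 10 libraries by a median of 0.26 on the log2 scale, whereas this value lay between 0.099 and 0.15 for each of the other libraries. The fold limits, the choice of members and the members' largest differences from London are also given without that library. No gene names came with the IDs, and 0 of them were found in the table of RefSeq genes, so no function is given for any member and no sequence is shown.

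In level the members resembled the candidates they were chosen from. Their mean level over the libraries ran from 56.5 to 643 CPM with a median of 126 CPM. The median of the candidates was 123.8 CPM. The 14394 genes later tested with edgeR had a median of 19.3 CPM and an upper quartile of 69.7 CPM. Every member thus lay above the median of the genes tested, because the rule set a minimum CPM in every library. When candidates were divided into 4 equal classes of level, 43 members lay in the lowest class, 31 and 46 in the middle classes and 30 in the highest. Together the members held 2.35 ± 0.0351% of all counts in Trizina (SD, n = 4), 2.09 ± 0.0569% in London (SD, n = 3) and 2.51 ± 0.0640% in BC2018-14 (SD, n = 4). These shares are before scaling by TMM factors.

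The SD of the members ran from 0.024 to 0.077 on the log2 scale with a median of 0.065. The median SD was 0.17 among the candidates and 0.20 among the 100 most abundant genes that the rule left out. Between the highest and the lowest library, members differed by a median of 1.16-fold and by at most 1.24-fold. The corresponding median was 1.46-fold among candidates and 1.53-fold among the most abundant genes. Most of the spread of a member lay within strains. Differences between strain means held a median of 25.6% of a member's sum of squares, against 53.6% for the candidates. The share was under 50% in 127 of the 150 members and in 1676 of the 3616 candidates. Replicate spread alone gives part of such a share, and the rule used this sum of squares, so nothing is read from the gap.

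**Figure D1:**
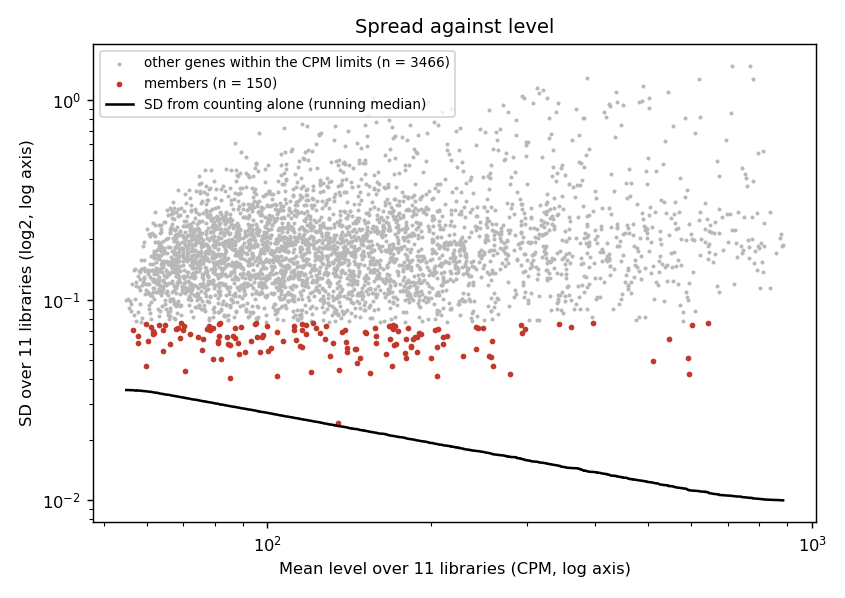
SD over the 11 libraries against mean level, both on log axes, for the 150 members (red) and the other candidates (grey), with the SD that counting alone would give (black line). Members lie at levels from 56.5 to 643 CPM and below an SD of 0.077, and 1 member lies on the line.

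The gene of smallest SD was tetur43g00290, whose SD was close to that of counting alone. It is the extreme of 3616 values, so its SD may understate its spread. Its level was 134.6, 133.9, 137.7 and 133.7 CPM in the Trizina libraries. The London libraries had 132.2, 134.7 and 133.5 CPM, and the BC2018-14 libraries had 130.7, 136.0, 138.6 and 134.2 CPM. The Trizina and London libraries overlapped in part and lay within the range of BC2018-14, and the strain means were 135.0 ± 1.87 CPM in Trizina (SD, n = 4), 133.5 ± 1.26 in London (SD, n = 3) and 134.9 ± 3.34 in BC2018-14 (SD, n = 4). Its SD of 0.024 on the log2 scale was 1.04 times the 0.023 that Poisson counting of its 3381 to 4832 reads would give. Such a counting SD covers the sampling of reads alone, because no molecular identifiers are described and copies of a molecule are counted separately.

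The next gene, tetur19g00340, had an SD of 0.041, or 1.398 times the counting SD. It had 84.0, 86.6, 84.0 and 87.0 CPM in Trizina, 82.5, 87.1 and 83.4 CPM in London, and 89.0, 81.4, 86.2 and 87.9 CPM in BC2018-14. Its highest and its lowest library were both of BC2018-14, at a ratio of 1.09. Over all members the SD was a median of 2.57 times the counting SD, with 4 members within 1.5 times and 23 within 2 times. The same median was 7.14 among candidates and 26.9 among the 100 most abundant genes. At these depths counting thus made up a minor part of the spread for most members.

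The member of lowest level was tetur03g08420. Its level lay between 52.1 and 57.4 CPM in Trizina, between 54.2 and 59.1 CPM in London and between 55.8 and 61.4 CPM in BC2018-14. The member of highest level, tetur05g04670, was also the last to enter the list, with an SD of 0.0769 and values from 587 to 702 CPM, both ends of which were London libraries. The first gene outside the list, tetur06g04100, had an SD of 0.0770 at a mean of 161 CPM. The limit therefore separated genes that hardly differed in spread.

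Within strains, members were steadier than most candidates in every strain, as the rule implies. The median SD of a member was 0.052 in Trizina, 0.068 in London and 0.048 in BC2018-14, and that of a candidate was 0.083, 0.17 and 0.074. Members lay below the candidates' median in 139 of 150 cases in Trizina, 130 in BC2018-14 and 150 in London. Without London library 2 the median SD within London was 0.043 for members and 0.074 for candidates. Low spread in a single strain seldom sufficed: of the 150 candidates steadiest within London, 30 were members, and the same number was 16 in Trizina and 16 in BC2018-14.

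**Figure D2:**
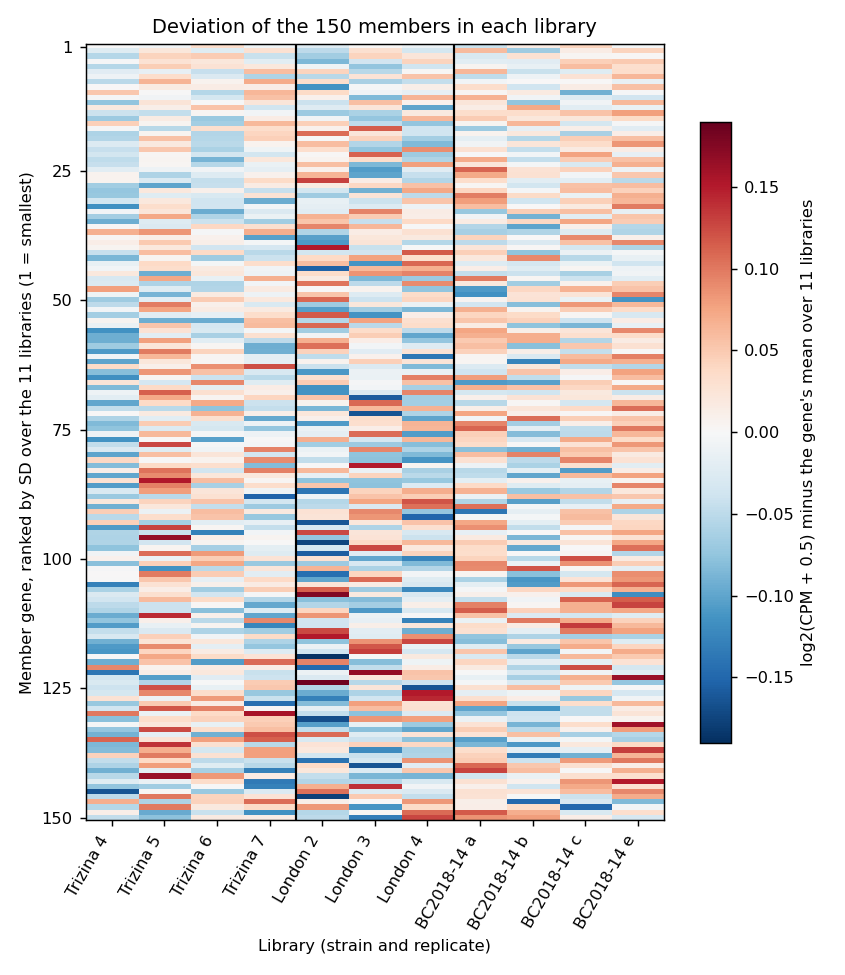
Deviation of each member (rows, ranked by SD) from its mean over the 11 libraries (columns, by strain), on the log2 scale. Rows are pale at the top and mixed in sign throughout, and Trizina library 4 is below the mean for 116 of the 150 members.

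Fold limits between strains were narrow. Trizina differed from London by at most 1.099-fold in strain mean for any member, with a median absolute difference of 0.041 on the log2 scale, and 75 members were higher and 75 lower. The corresponding maximum was 1.101-fold between Trizina and BC2018-14, with 55 members higher and 95 lower in Trizina, and 1.099-fold between BC2018-14 and London, with 92 higher and 58 lower in BC2018-14. The median log2 difference of Trizina minus BC2018-14 was -0.017 for members and -0.032 for candidates. For BC2018-14 minus London it was 0.019 and 0.055. With upper-quartile factors the members higher in the 3 pairs, in the order given, numbered 91, 39 and 122. Limma's 95% intervals for the difference of a member stayed within 1.2-fold in all 3 pairs for 147 of 150 members, against 8.52% of the candidates, and within 1.1-fold for 2. The farthest bound of any member was 1.21-fold between Trizina and London, 1.19-fold between Trizina and BC2018-14 and 1.201-fold between BC2018-14 and London. The choice of genes with small SD narrows the intervals of members. Limma's moderation draws low variances toward those of other genes of like level, which widens these intervals. Even tetur43g00290, the member of smallest SD, had an interval of 0.934 to 1.09 between Trizina and London. The number within 1.1-fold therefore also reflects the moderation. For the same members without London library 2, 137 had all 3 intervals within 1.2-fold (13.4% of the candidates) and 6 within 1.1-fold. The farthest bounds were then 1.22-fold between Trizina and London and 1.22-fold between BC2018-14 and London.

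The members at the ends of these differences are given next, as the extremes of 150 values that the rule used. None passed edgeR's quasi-likelihood test in its pair, with adjusted p values (Benjamini-Hochberg) from 0.0544 to 0.114. The largest increase of Trizina over London was in tetur05g08560, with 120.1, 130.9, 122.7 and 118.1 CPM in Trizina against 111.7, 111.6 and 112.0 CPM in London. These libraries did not overlap, and Trizina was 1.099-fold higher (95% interval 1.01 to 1.195). In the other direction tetur32g01750 had 54.6 to 59.7 CPM in Trizina and 59.4 to 65.8 CPM in London, which overlapped, at 0.911 of the London level (interval 0.83 to 1.002). Without London library 2 these ratios were 1.098 and 0.912. The 4 BC2018-14 libraries lay between 116.3 and 118.5 CPM for the first gene and between 58.1 and 62.8 CPM for the second.

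Trizina exceeded BC2018-14 most in tetur17g03630. Its level was 314.9, 297.1, 307.8 and 315.5 CPM in Trizina and 271.3, 289.1, 290.8 and 279.2 CPM in BC2018-14, without overlap, a ratio of 1.09 (interval 1.01 to 1.19). London had 276.1 to 285.8 CPM of it, also below every Trizina library. The member lowest in Trizina relative to BC2018-14 was tetur03g06920, with 74.5 to 80.5 CPM against 81.5 to 89.1 CPM and a ratio of 0.908 (interval 0.838 to 0.985). Its London libraries, from 80.0 to 84.5 CPM, overlapped both.

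Between the susceptible strains, tetur16g01540 had the largest increase in BC2018-14, with 165.9, 159.0, 163.5 and 162.3 CPM against 147.2, 151.1 and 149.2 CPM in London. The ratio was 1.09 (interval 1.01 to 1.18), and the libraries did not overlap. Without London library 2 it was 1.08, and its interval (0.9995 to 1.17) included 1. The largest decrease was in tetur18g01620, with 116.1 to 117.5 CPM in BC2018-14 and 120.4 to 135.9 CPM in London, a ratio of 0.910 (interval 0.833 to 0.994). The London libraries of this gene differed more from each other than the BC2018-14 libraries did, with an SD of 7.83 CPM (n = 3) against 0.624 CPM (n = 4), and the highest of them was library 2. Without that library London had 120.4 and 130.05 CPM, and the ratio was 0.935 with an interval (0.860 to 1.02) that included 1.

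With edgeR's quasi-likelihood test over 14394 genes, 0 members passed an adjusted p (Benjamini-Hochberg) of 0.05 in any of the 3 pairs, with no minimum fold. Of all genes tested, 36.5% passed between Trizina and London, 39.6% between Trizina and BC2018-14 and 47.1% between BC2018-14 and London. Since the rule used these contrasts, nothing is read from that gap. At an unadjusted p below 0.05 there were 2, 4 and 2 members, where 44.9%, 48.5% and 53.8% of all genes had such a p. DESeq2 called 2, 4 and 2 members at an adjusted p below 0.05, where it called 35.2%, 38.8% and 44.8% of its genes. With a minimum of 2-fold added, 0 members were called by edgeR in any pair, against 17.6%, 15.1% and 21.7% of all genes.

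The libraries did not overlap for 12 members between Trizina and London, against 40.2% of all genes tested. Of these members 8 were higher and 4 lower in Trizina, where 20% and 20.2% of all genes were. Between Trizina and BC2018-14 there were 16 such members (45.8% of genes), 3 higher in Trizina (22.6%) and 13 lower (23.1%). Between BC2018-14 and London there were 14 (47.9%), 12 higher in BC2018-14 (24.4%) and 2 lower (23.5%). The candidates leaned the same way. Of them 13.3% were higher and 12.2% lower in Trizina than in London. Relative to BC2018-14, 17.3% were higher and 25.9% lower in Trizina. In BC2018-14 against London 23.9% were higher and 13.6% lower. With 2 London libraries in place of 3, library 2 left out, the numbers of members without overlap were 34 between Trizina and London (52.5% of all genes) and 41 between BC2018-14 and London (62.2%). Fewer libraries overlap less often by construction. Without London library 2, edgeR called 2 members between Trizina and BC2018-14 at an adjusted p below 0.05, where 47.3% of genes were called. Without London library 3 it called 1 member between BC2018-14 and London (44.7% of genes).

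Stability was next measured in libraries that the choice had not used. Each library was left out in turn, 150 genes were chosen on the other 10, and the left-out value was compared with the mean of those 10. In 10 of the 11 cases the chosen genes deviated by a median of 1.03-fold to 1.06-fold, and the candidates by 1.07-fold to 1.11-fold. Between 74% and 96.7% of the chosen genes lay within 1.1-fold in these libraries, against 46.8% to 64.8% of the candidates. The farthest chosen gene deviated by 1.12-fold in Trizina library 6 and by 1.30-fold in London library 3, the lowest and highest of these values.

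London library 2 was the exception. The genes chosen without it deviated in it by a median of 1.12-fold, and 66 of 150 (44%) were within 1.1-fold, against 29.3% of the candidates. Of the genes chosen without it, 84 were members, whereas leaving out any other library kept 116 to 138. A large part of the list thus rested on this library. It also carried the largest share of counts in the 100 most abundant genes, 24.8%, and the lowest TMM factor, 0.874. The part of these measures in the result was not tested.

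**Figure D3:**
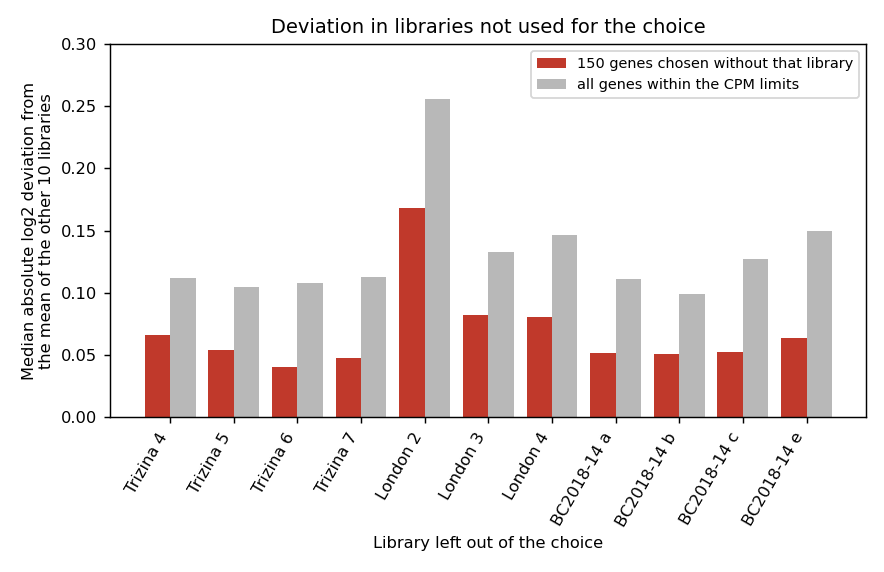
Median absolute log2 deviation of a library from the mean of the other 10, for 150 genes chosen without it (red) and for all candidates (grey). The red bar is lower than the grey bar in each of the 11 libraries, and both are highest in London library 2, at 0.17 and 0.26.

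A whole strain was then left out. Of 150 genes chosen on London and BC2018-14 alone, Trizina differed from the mean of both by a median of 1.06-fold, and 74% of the genes were within 1.1-fold (55.9% of the candidates of that choice). With London left out, the median was 1.07-fold and 59.3% were within 1.1-fold (46.5% of candidates). With BC2018-14 left out, it was 1.09-fold and 51.3% were within 1.1-fold (43.1%). The candidates' medians were 1.09-fold for Trizina, 1.11-fold for London and 1.12-fold for BC2018-14. With its sign kept, the median log2 difference of the chosen genes was 0.090 in BC2018-14, against 0.025 for the candidates. The same values were -0.039 against -0.013 in Trizina and -0.035 against -0.049 in London. The 3 choices shared 88, 58 and 61 genes with the members, and 24 genes were in every one of them. The scaling used all 11 libraries in these choices and in those without 1 library.

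Genes that were flat in 2 strains could be far off in the third, as 3 genes chosen after their values were seen show. The gene tetur04g03880 had 78.7, 82.2, 79.3 and 80.2 CPM in Trizina and 81.1, 81.3, 79.8 and 77.5 CPM in BC2018-14, but 29.4, 22.2 and 26.7 CPM in London. Its strain means were 80.1 ± 1.51 (SD, n = 4), 79.9 ± 1.72 (SD, n = 4) and 26.1 ± 3.63 CPM (SD, n = 3), so that London was 3.05-fold below the other strains. Over the 3 choices it was the 1 chosen gene that moved beyond 2-fold in the strain left out. Among the candidates of these choices 1.08% to 3.76% did so.

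The gene with the largest deviation when BC2018-14 was left out, tetur12g01390, had 88.3 ± 2.92 CPM in Trizina (SD, n = 4), 88.3 ± 2.69 in London (SD, n = 3) and 142 ± 8.62 in BC2018-14 (SD, n = 4). No BC2018-14 library was below 129.7 CPM and no other library was above 92.3 CPM. When Trizina was left out the farthest gene was tetur07g01520, at 706 ± 72.6 CPM in Trizina (SD, n = 4), 503 ± 11.6 in London (SD, n = 3) and 484 ± 17.9 in BC2018-14 (SD, n = 4). The lowest Trizina library had 617.4 CPM and the highest of the others 515.4 CPM. None of these 3 genes was a member.

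The list of members changed little between TMM and median-ratio factors and broadly with library size alone. TMM and the median-ratio factors differed by 0.565% or less in any library, and 144 of the 150 members were chosen with either. Upper-quartile factors kept 119 members. With library size alone, 21 members were chosen, 2 members left the CPM limits, and the rank of the other members by SD moved to a median of 419 of 3422 candidates. The median SD of the members rose from 0.065 to 0.13 with library size alone, and that of the 150 genes chosen under it was 0.092.

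The change followed the strains. With library size alone the median log2 difference over all genes moved by 0.17 between Trizina and London, by -0.078 between Trizina and BC2018-14 and by 0.25 between BC2018-14 and London, relative to TMM. The members moved with that shift: BC2018-14 was 1.202-fold above London in the median member and Trizina 1.13-fold above London, and each of the 150 members was higher in both than in London. On the TMM scale the members' median differences were 0.00013, -0.017 and 0.019 in these pairs. With library size alone edgeR's quasi-likelihood test (adjusted p below 0.05) called 143 members higher in BC2018-14 than in London, where 41.1% of all genes were called higher. It called 58 higher in Trizina than in London (28.9% of genes) and 19 lower in Trizina than in BC2018-14 (25.5%). The rule chose members with small SD on the TMM scale, so a common shift makes calls in 1 direction likely. Nothing is read from these numbers beside the shares of all genes.

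Genes that were steadiest under library size alone were in turn higher in London on the TMM scale, with a median of -0.13 for Trizina minus London and -0.18 for BC2018-14 minus London. Under library size alone their medians were 0.044 and 0.065, so these values follow from the shift between the scales. The 100 most abundant genes took 16.4 ± 0.683% of all reads in BC2018-14 (SD, n = 4) and 18.3 ± 0.205% in Trizina (SD, n = 4). In London they took 23.8 ± 1.33% (SD, n = 3). TMM factors ran in the opposite order, from 0.874 to 0.918 in London, from 1.00 to 1.02 in Trizina and from 1.06 to 1.09 in BC2018-14. The part of the abundant genes in the choice of members was not tested. Counts alone cannot say which scale is right, since the libraries hold shares and no added standard is described in the labels.

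**Figure D4:**
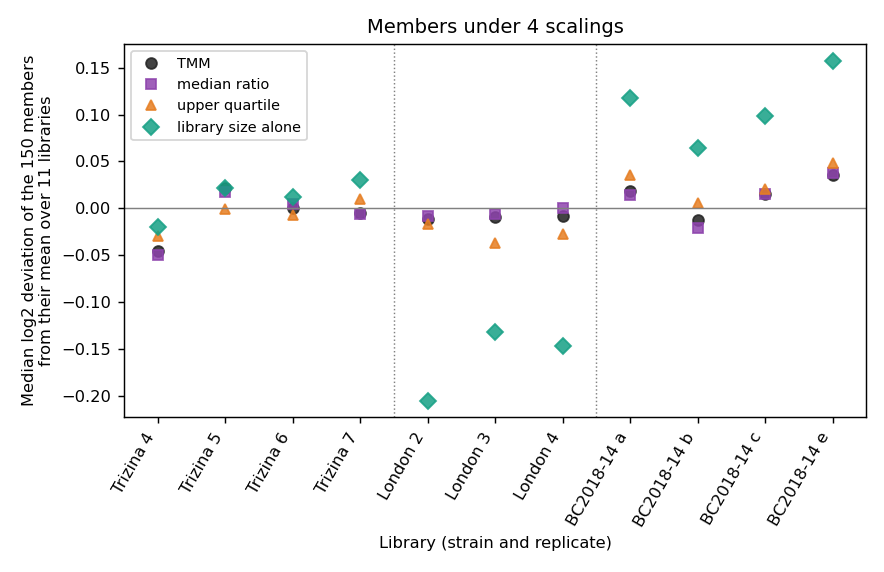
Median log2 deviation of the 150 members from their mean over 11 libraries under 4 scalings. With TMM it lies between -0.045 and 0.035 in every library, and with library size alone it lies between -0.20 and -0.13 in London and between 0.065 and 0.16 in BC2018-14.

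Under TMM itself neither the members nor the candidates were centred in every library. Trizina library 4 had 116 members below and 34 above their own mean, with a median deviation of -0.045, and the candidates' median was -0.042. BC2018-14 library e had 104 above and 46 below, with a median of 0.035, and the candidates' median was 0.056. Scaling the libraries on the members themselves would change the TMM factors by -3.09% in Trizina library 4 to 2.47% in BC2018-14 library e, a check added after the data were seen. Calls over all genes, with edgeR's adjusted p below 0.05 and at least 2-fold, were then 2528 between Trizina and London, 2173 between Trizina and BC2018-14 and 3123 between BC2018-14 and London, against 2531, 2172 and 3121 with TMM. With no minimum fold, 0 members were then called between Trizina and London (36.7% of genes), 0 between Trizina and BC2018-14 (39.4%) and 1 between BC2018-14 and London (46.6%). In the same fit 3, 5 and 3 members had an unadjusted p below 0.05 (45%, 48.3% and 53.2% of genes). Members were chosen as steady under TMM, so factors taken from them stay near TMM by construction. Nothing is read from the like numbers of calls.

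Members were spread over the genome as far as gene IDs show it. The ID gives a scaffold number and an order, and the sources used here give no genome build. Members lay on 36 scaffolds of the 69 that held a candidate. The 33 scaffolds without a member held 183 candidates in all. Scaffolds 1, 2 and 5 had 13 members each, scaffolds 7 and 11 had 10 each, and these 5 scaffolds held 59 members.

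The share of candidates that were members varied over the 28 scaffolds with at least 50 candidates, which held 140 members. Scaffold 32 had the highest share, with 8 members among 68 candidates (11.8%), followed by scaffold 28 with 7 of 72. Scaffold 12 had the lowest, with 1 of 87. The count on scaffold 32 rested on London library 2, without which it was 3. It was 7 with median-ratio factors, 8 with upper-quartile factors and 1 with library size alone. The median SD of all candidates on scaffold 32 was 0.17, as it was over all candidates.

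Some members were neighbours. In the order of IDs, 5 pairs of members were directly next to each other, on scaffolds 7, 21, 26, 32 and 33, and these pairs held 10 of the 150 members. Among candidates alone 8 pairs of members followed each other. The number of pairs in a random draw of candidates was not computed, so these counts are not called few or many. The members of a pair could differ in level and spread. In the pair on scaffold 32, chosen after its values were seen, tetur32g01350 had a mean of 104 CPM and an SD of 0.042, and tetur32g01370 had 139 CPM and 0.070. Reads that overlapping or near-identical genes share cannot be traced in these counts.

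**Figure D5:**
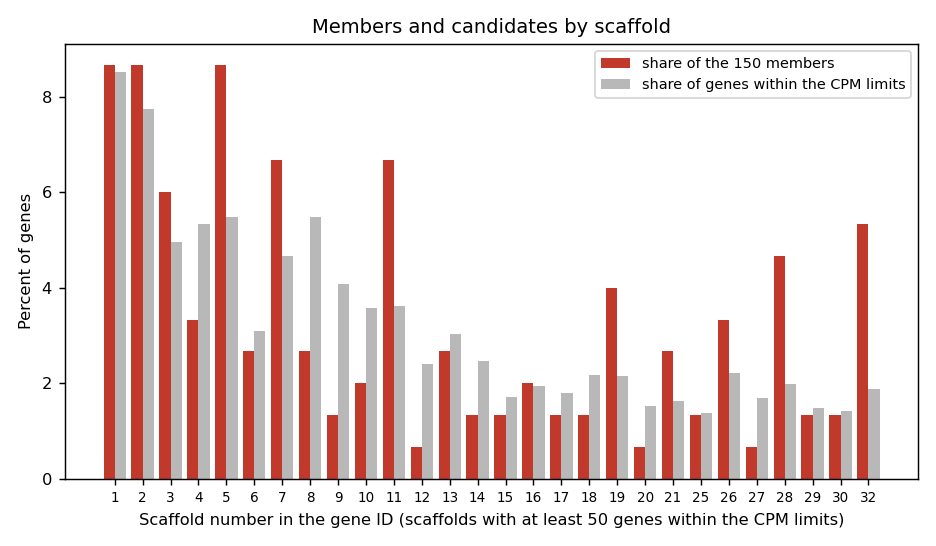
Share of the 150 members (red) and of the 3616 candidates (grey) on each of the 28 scaffolds with at least 50 candidates. Scaffold 1 holds like shares of both, 8.67% and 8.52%, and scaffold 32 holds 5.33% of members and 1.88% of candidates.

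Of 19114 IDs, the authors' deposited tables listed 1458 for Trizina and London and 967 for Trizina and BC2018-14. They listed 0 of the members. Of the candidates, 16 (0.442%) were in the authors' deposited table for Trizina and London. The authors' deposited table for Trizina and BC2018-14 held 11 (0.304%). The smallest absolute log2 fold change in the authors' deposited tables was 1.5, whereas no member differed by more than 1.101-fold between strains. The absence of members thus followed from the rule, and nothing is read from it.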

How the data were processed

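Whole-body mRNA of 3 strains was sequenced as paired-end, stranded libraries, per the labels' protocols. The authors deposited raw read counts per gene. The submitters' processing notes name HISAT2 2.1.0, SAMtools 1.10, featureCounts 1.6.0 and edgeR, with no order or settings; the sources used here give no build, annotation or strand setting. The authors deposited 2 comparison tables with log2 fold changes and p-values (false discovery rates), per the file headers.

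The raw table names 12 libraries and holds 11 values per line. Columns were assigned because their values equalled the named columns of the comparison tables at 1458 of 1458 or 967 of 967 genes; London library 5 was not among them. Designs set for all libraries were therefore fitted to 11.

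Counts were tested with edgeR 4.0.16 (R 4.3.3; filterByExpr, TMM, robust quasi-likelihood fit, strain as the only term). Intervals came from limma 3.58.1 on log2(CPM + 0.5), with trend and robust moderation. A call needed an adjusted p below 0.05 and, where stated, a fold change of 1 or more on the log2 scale in either direction. The steps were run on simulated counts with genes changed in Trizina alone, a simpler setting than that of these data. Named genes were the 2 of smallest SD, those of highest and lowest mean, those with the largest difference of each sign per pair, and those at ranks 150 and 151; exceptions are stated. Members, lists and tests were chosen with earlier results of these data known. Libraries of 1 strain all differed by more than sampling noise (chi-square per degree of freedom 6.75 to 150). Separate cultures per library are not stated in the labels. The spread behind each p-value is that of these libraries only, and may be technical. Alternatives were DESeq2 1.42.0, other scalings, filters, pseudocounts and measures of spread, and each library left out.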

Additional observations from a re-analysis of the deposited data

How the results depend on the processing

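The calls over all genes stayed within 1.5 times of their number under all 16 alternatives in each pair of strains. Of these alternatives, scaling by the members stays near TMM by construction. Leaving out a library gave 2375 to 2611 genes between Trizina and London, 1928 to 2321 between Trizina and BC2018-14 and 2962 to 3219 between BC2018-14 and London. The share of higher calls moved with library size alone, from 43.3% to 51.5% between Trizina and London and from 35.4% to 48.2% between BC2018-14 and London. The number of members still chosen fell to 21 with library size alone and to 88 with a minimum of 100 CPM, a limit under which 62 members could not be chosen by construction. It ran from 84 to 138 when a library was left out, and from 119 to 148 in the other alternatives. Of the 150 members, 69 were chosen in each of 19 alternatives, those without library size alone and the minimum of 100 CPM, and 9 in all 21. The median SD moved to 0.092 with library size alone and ran from 0.055 to 0.067 over left-out libraries. Members lay on 33 to 39 scaffolds in every choice, and on 34 to 39 when a library was left out.

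For the same members, library size alone moved the median log2 difference to 0.17 for Trizina minus London, -0.094 for Trizina minus BC2018-14 and 0.27 for BC2018-14 minus London. With a library left out and members chosen again, these medians ran from -0.010 to 0.0047, from -0.029 to -0.0038 and from 0.0087 to 0.024. Members called with no minimum fold numbered 58, 19 and 143 in these pairs with library size alone and 2, 4 and 2 with DESeq2. Scaled by the members themselves, 1 was called between BC2018-14 and London. With a library left out the numbers ran from 0 to 0, from 0 to 2 and from 0 to 1. The shift from library size follows from its construction, and the cause of the other changes was not tested. The lowest count of a member was 1413. Depth limits how small an SD could be measured for members near the counting SD, such as the 23 within 2 times of it. No paired analysis was possible because numbers shared between strains join at most London library 4 with Trizina library 4 among the libraries used.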
